A study of Drosophila melanogaster with 2 samples.

Results

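The 73 mitochondrial ribosomal protein genes of Drosophila melanogaster were examined for binding of the repressor E(spl)m5-HLH in embryos. They are the protein-coding genes whose symbols begin with mRpL (47 genes, large subunit) or mRpS (26 genes, small subunit), of 13945 protein-coding genes on the 6 chromosome arms 2L, 2R, 3L, 3R, 4 and X. A gene was called bound when the summit of a peak past the authors' reproducibility threshold lay within 1 kb of any of its annotated start sites. By this rule 11 of the 73 genes (15.1%, 95% Wilson interval 8.63 to 25, which covers counting error only) were bound, beside 11.9% of all protein-coding genes (1653 of 13945). The interval included the share of all genes.

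Mitochondrial ribosomes translate the few proteins encoded by mitochondrial DNA, which are subunits of the oxidative phosphorylation complexes. Their RNA comes from the mitochondrial genome, but all of their proteins are encoded in the nucleus, made on cytoplasmic ribosomes and imported. Some of these proteins have counterparts in the bacterial ribosome, and others were acquired by mitochondrial ribosomes. E(spl)m5-HLH belongs to the basic helix-loop-helix (bHLH) repressors of the Enhancer of split complex, whose genes are switched on by Notch signalling and hold back neural fate together with the corepressor Groucho. Proteins of this family bind hexamers such as CACGTG and CACGCG, whereas proneural bHLH activators bind E boxes of the CAGCTG type.

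Chromatin was immunoprecipitated from whole embryos aged 0 to 12 h, with males and females mixed, of a line that stably carries E(spl)m5-HLH with GFP at its C terminus. The 2 libraries are biological replicates, numbered 3 and 4, of 1 group, so no contrast between conditions and no test over samples was possible. The labels disagree: a free-text field calls both an input control, but the antibody label and the assay title are those of an immunoprecipitation, and they are treated as such here. A whole embryo mixes all cell types and many ages, so a peak does not say in which cells a gene was bound, and no list from an untagged line was used here.

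The authors' lists held 30000 candidate peaks for replicate 3, 30000 for replicate 4, 30000 for the pooled reads, and 2487 thresholded peaks, which were the 2487 pooled candidates of highest signal. Signal is the authors' value of a peak relative to the control, on a scale not given in the sources used here, and rank 1 is the strongest peak of a list. The pooled signal ran from 114 to 2284 within the thresholded list, and read depth is unknown from these lists. As a check of the label, the peaks at E(spl)m7-HLH, E(spl)m8-HLH and E(spl)m5-HLH, all genes of the complex itself, held pooled ranks 1, 4 and 5.

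Sequences at 5 of the bound genes show what lay under the peaks. The first 3 are the 81 bases centred on the summit at genes whose peaks were strong in both replicates and lay in intergenic DNA (mRpL41, which also fits, is not shown), with the summit base in capitals, read on the plus strand of dm6. They hold no copy of CACGTG, none of the hexamer CACGCG and no E box CAGCTG.
mRpS10, chr3R:15229481-15229561: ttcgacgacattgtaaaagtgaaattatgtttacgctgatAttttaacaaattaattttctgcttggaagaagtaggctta
mRpS23, chr2L:13835428-13835508: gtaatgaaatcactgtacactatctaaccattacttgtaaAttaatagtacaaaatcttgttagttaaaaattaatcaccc
mRpL24, chr2L:4945439-4945519: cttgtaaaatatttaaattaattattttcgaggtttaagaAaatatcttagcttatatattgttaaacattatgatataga
The other 2 are 30-base windows around the hexamers, in capitals and on the plus strand, that the repressor family is known to bind. The CACGTG lay 87 bp from the summit at mRpL23 and the CACGCG 27 bp from that at mRpL2, counted to the third base of the hexamer.
mRpL23, chr3L:2373686-2373715: cccgtgtaaaagCACGTGggttgtccaaca
mRpL2, chr3L:11119980-11120009: accacacacacaCACGCGcaaacgacgcac

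The strongest peak at any of the 73 genes was at mRpS10, whose bacterial counterpart lies in the head of the small subunit. Its pooled signal was 994 (rank 16 of the thresholded list), its signal in replicate 3 was 554 (rank 11) and its signal in replicate 4 was 429 (rank 26). The summit, at chr3R:15229521 in intergenic DNA, lay 144 bp upstream of mRpS10 and 113 bp from the start of Art3, an arginine methyltransferase gene on the other strand. This peak stood among the strongest of the genome in both replicates. The next was mRpL41, which encodes a protein of the large subunit that bacterial ribosomes lack. Its pooled signal was 803 (rank 30), with 454 (rank 24) in replicate 3 and 351 (rank 40) in replicate 4. Its summit was intergenic, 141 bp upstream of mRpL41, and no other start site was nearer.

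The peak at mRpS23, which encodes a small-subunit protein without a bacterial counterpart, had a pooled signal of 532 (rank 81), with 245 (rank 125) in replicate 3 and 293 (rank 68) in replicate 4. It lay 396 bp upstream of mRpS23 and 96 bp from the start of CenG1A, which encodes an Arf GTPase-activating protein. The peak at mRpL23, whose bacterial counterpart sits at the exit of the peptide tunnel, was the only peak of the 11 downstream of its gene's start. Its summit lay 65 bp inside, in the 5' UTR, with a pooled signal of 415 (rank 156), 238 (rank 132) in replicate 3 and 162 (rank 289) in replicate 4. These 4 were the only genes of the 73 bound by the 500 strongest peaks, beside 340 of all 13945 protein-coding genes. The lowest rank of any of the 4 in either replicate was 289.

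The other large-subunit genes with bacterial counterparts had weaker peaks. mRpL24 had a pooled signal of 212 (rank 729), with 144 (rank 457) in replicate 3 and 69.6 (rank 1820) in replicate 4. Its summit was intergenic, 118 bp from mRpL24 and 100 bp from betaggt-I, a subunit gene of a protein prenyltransferase. mRpL2, whose bacterial counterpart lies near the peptidyl transferase centre, had a pooled signal of 179 (rank 1042) and a signal of 123 (rank 540) in replicate 4. Replicate 3 had no candidate within 100 bp of that summit, and its strongest candidate within 1 kb of the gene ranked 2335. The summit lay 826 bp upstream of mRpL2, inside an intron of FoxK, a forkhead factor gene whose start was 390 bp away.

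mRpL34 had a pooled signal of 156 (rank 1325), with 86.5 (rank 1342) in replicate 3 and 63.6 (rank 2183) in replicate 4. That summit lay in the 5' UTR of Dg, the dystroglycan gene, 89 bp from the start of Dg and 473 bp from that of mRpL34. mRpL53, a large-subunit gene without a bacterial counterpart, had a pooled signal of 124 (rank 2139), with 47.8 (rank 4452) in replicate 3 and 91.6 (rank 1033) in replicate 4. Its summit was 69 bp upstream of a start site it shares with CG33155, and 101 bp from that of AGO1, which encodes the Argonaute protein of the microRNA pathway. Of these 4 large-subunit peaks, those at mRpL24 and mRpL34 were among the 2487 strongest of both replicates.

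The last 3 bound genes encode small-subunit proteins with bacterial counterparts. mRpS16 had a pooled signal of 138 (rank 1737) and 99.3 (rank 869) in replicate 4, whereas replicate 3 had no candidate within 100 bp and its strongest within 1 kb ranked 4328. Its summit lay 32 bp upstream of mRpS16 and 65 bp from cg, the zinc-finger gene combgap. mRpS2 had a pooled signal of 134 (rank 1852), with 75 (rank 1817) in replicate 3 and 55.3 (rank 2813) in replicate 4, and its summit was nearer to Mon1, an endosomal trafficking gene (20 bp), than to mRpS2 (202 bp). mRpS18C lay just inside the threshold with a pooled signal of 118 (rank 2345), with 65.4 (rank 2390) in replicate 3 and 55.1 (rank 2825) in replicate 4. Its replicate signals lay close together, and its summit was 1 bp from its start site. Its paralogs mRpS18A and mRpS18B, named for their relation to it after the values were seen, were not thresholded and had their strongest pooled candidates at ranks 15532 and 11060.

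**Figure D1:**
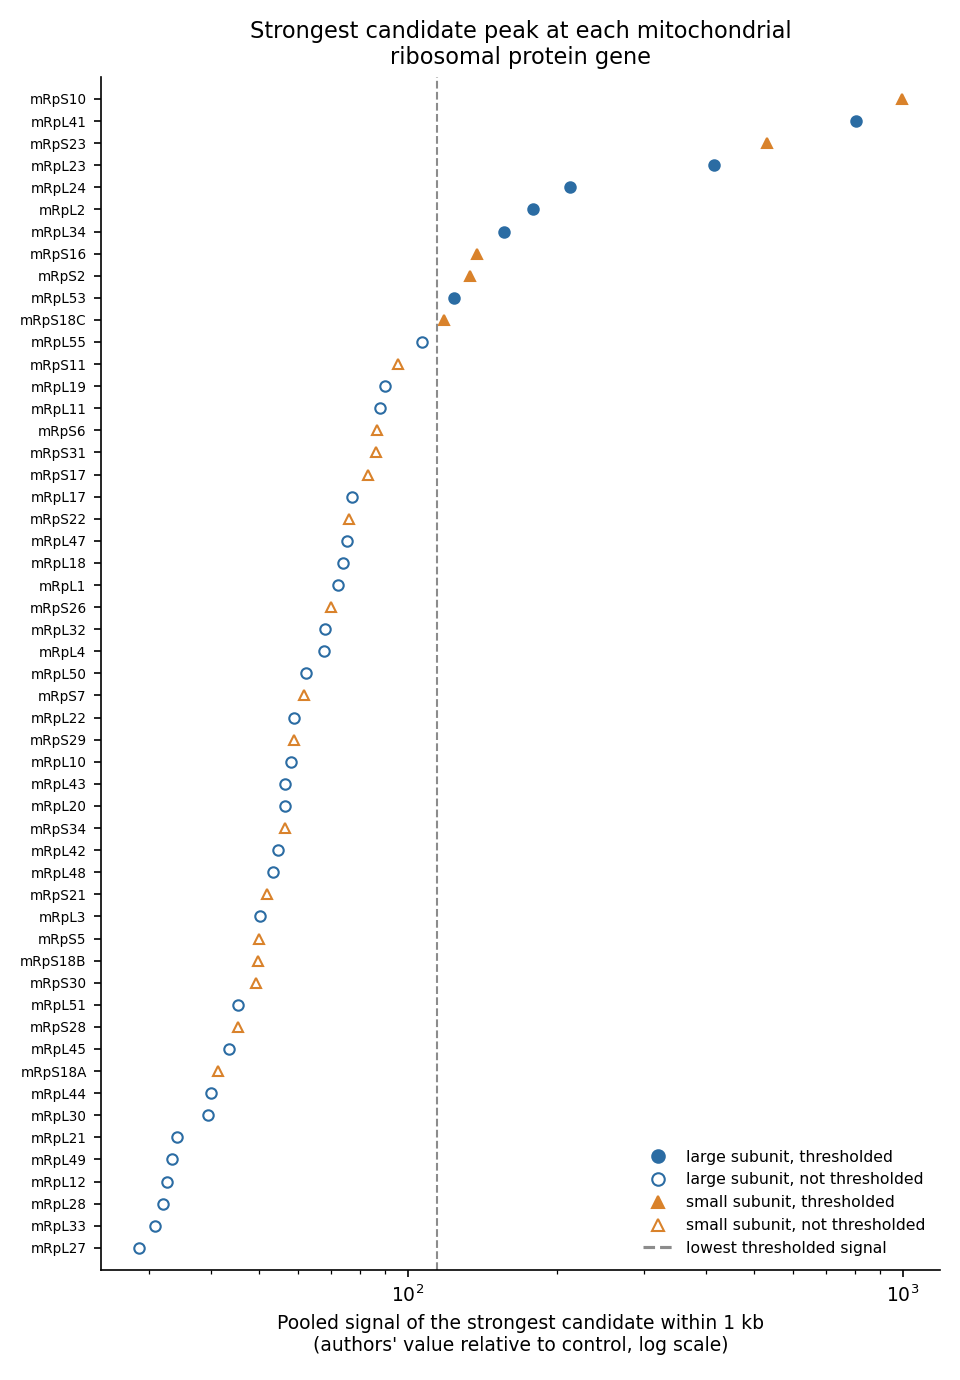
Pooled signal (x axis, log scale, the authors' value relative to the control) of the strongest candidate peak within 1 kb of each of the 53 mitochondrial ribosomal protein genes that had any, with circles for large-subunit and triangles for small-subunit genes. The 11 filled points lie above the lowest thresholded signal (dashed line, 114), from mRpS18C at 118 to mRpS10 at 994, and the 42 open points lie below it.

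The 11 genes were bound through 11 distinct summits, and none had more than 1. Their median pooled signal was 179 and their median rank 1042, beside 163 and 1232 for the strongest summits of all bound protein-coding genes. The large subunit held 6 bound genes of 47 (12.8%) and the small subunit 5 of 26 (19.2%). Classes were set by gene number alone, which need not match descent for every gene. Of the genes numbered as bacterial proteins are (L1 to L36 and S1 to S21), 8 of 42 (19.0%) were bound. Of those with higher numbers, taken as mitochondria-specific, 3 of 31 (9.68%) were bound. The Wilson intervals of the subunits (5.98 to 25.2 and 8.51 to 37.9) and of the classes (9.98 to 33.3 and 3.35 to 24.9) overlapped broadly. They too cover counting error only. By chromosome arm, 3 of 12 genes on 2L, 4 of 12 on 2R, 2 of 17 on 3L and 2 of 21 on 3R were bound, beside 12%, 12.9%, 11.9% and 12.2% of all protein-coding genes on those arms. None of the 11 on the X was bound, where 9.56% of all protein-coding genes were.

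The replicates were also counted separately. Taking the 2487 strongest candidates of each library alone, 12 of the 73 genes (16.4%) had a summit within 1 kb in replicate 3, beside 12.2% of all protein-coding genes. In replicate 4 the count was 13 (17.8%), beside 11.5%, and 8 genes (11%) passed in both, beside 7.6%. Of the 11 thresholded summits at these genes, 6 matched one of the 2487 strongest of each replicate within 100 bp, and the other 5 matched in 1 replicate only. The same match held for 58.0% of all thresholded summits. Across the 9 summits with a candidate in both libraries, Spearman's rho of the signals was 0.83 and Pearson's r on the log2 scale 0.90. Over all thresholded summits with a candidate in both (2302 of 2487, 92.6%, beside 81.8% at these genes) they were 0.47 and 0.57. The 9 summits include the 4 strongest, which ranked high in both libraries. Among the weaker ones, mRpL53 had the lowest signal in replicate 3 (47.8) but the highest in replicate 4 (91.6). For the strongest candidates within 1 kb, rho of the ranks was 0.65 over the 48 genes with one in both libraries. Over the 37 unbound genes among them it was 0.41. These are descriptions across peaks that share 1 pair of libraries.

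Unbound genes also ranked unequally in the single libraries. mRpS17 was among the strongest in both replicates, at ranks 2312 and 2101, but its strongest pooled candidate ranked 4413 and was not thresholded. The replicate ranks belong to different peaks: within 100 bp of that pooled summit, replicate 3 had only a candidate of signal 22.1 (rank 19909). Of the genes below the threshold, mRpL55 came nearest, with a pooled signal of 107 (rank 2826) and ranks 5457 and 2095 in replicates 3 and 4. Its pooled summit lay 721 bp downstream of the mRpL55 start and 86 bp from that of cdi. mRpS11 followed at rank 3472 and mRpL19 at rank 3856; mRpL19 ranked 2248 in replicate 3 and 21415 in replicate 4. mRpL11, whose bacterial counterpart forms the base of the factor-binding stalk, ranked 4043 in the pool, 13615 in replicate 3 and 2534 in replicate 4. mRpS6 ranked 4149, 4609 and 5765 in the pool, replicate 3 and replicate 4. The pooled summits at mRpS11, mRpL11 and mRpS6 also lay nearer to other starts, those of Ns1 (49 bp), HtrA2 (19 bp) and Cip4 (37 bp). By these ranks mRpL19 stood higher in replicate 3, and mRpL11 and mRpL55 in replicate 4. Only for mRpL11 do both ranks belong to candidates within 100 bp of the pooled summit. Near the pooled summit, replicate 4 had no candidate at mRpL19 and replicate 3 none at mRpL55, so those ranks belong to other candidates within 1 kb.

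**Figure D2:**
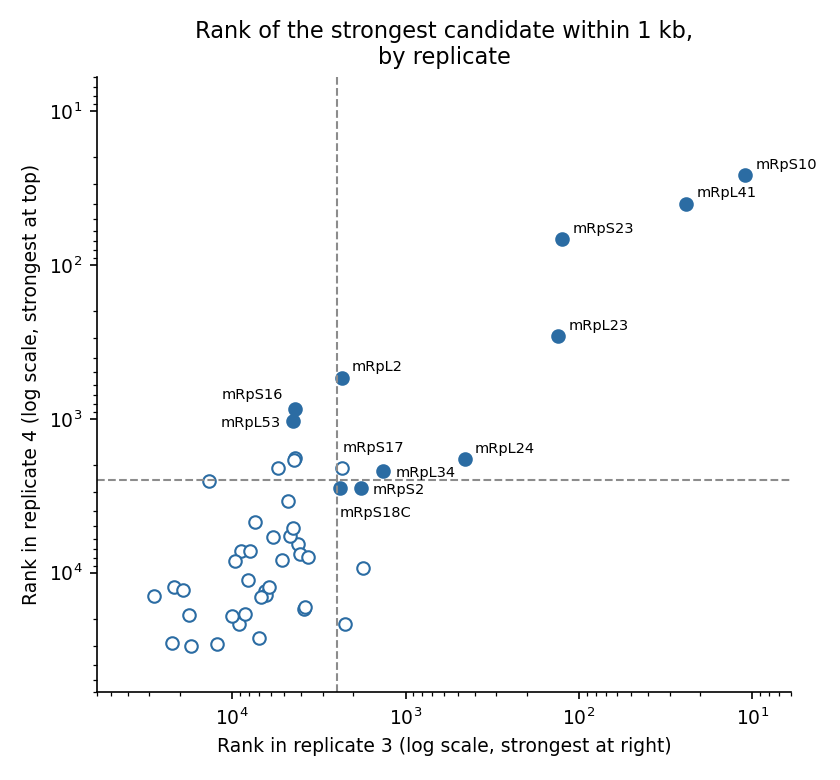
Rank of the strongest candidate within 1 kb of each gene in replicate 3 (x axis) and replicate 4 (y axis), on log scales with the strongest at the top right, for the 48 genes with a candidate in both; filled points are bound and dashed lines mark rank 2487. The 4 genes at the top right (mRpS10, mRpL41, mRpS23, mRpL23) stand apart from the rest, and mRpS17 is the open point inside both lines.

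A candidate peak of any strength lay near most of these genes. Of the 73, 53 (72.6%) had a pooled candidate within 1 kb, beside 57.5% of all protein-coding genes. For 34 of the 53 the strongest of these lay nearest to the start of another gene. The median rank of the strongest candidate was 7340, beside 7348 over all protein-coding genes with a candidate, and the median signal was 62.2 in both sets. The other 20 genes had no pooled candidate. Of these, mRpL14, mRpL40, mRpL46, mRpL52 and mRpS9 had none in any list and are named here after their values were seen.

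Most of these genes share their promoter region with a gene on the other strand. A head-to-head partner, meaning another start site within 1 kb on the opposite strand and pointing away, was annotated for 58 of the 73 (79.5%), beside 39.6% of all protein-coding genes. All 58 had a protein-coding partner. The median gap between the paired starts was 283 bp, beside 298 bp for all head-to-head protein-coding genes. All 11 bound genes were among the 58 (19.0%), and 981 of 5526 head-to-head protein-coding genes (17.8%) were bound. Of genes in other arrangements, 0 of 15 mitochondrial ribosomal protein genes and 672 of 8419 protein-coding genes (7.98%) were bound. A pooled candidate of any strength lay near 79.3% of the 58 head-to-head genes, beside 72.6% of all head-to-head protein-coding genes. In other arrangements these shares were 46.7% and 47.6%.

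The summits often lay nearer to the partner. For 6 of the 11, at mRpS10, mRpS23, mRpL24, mRpL2, mRpL34 and mRpS2, the nearest start site belonged to another gene. The gene's own start was nearest for the other 5, beside 568 of the 981 bound head-to-head protein-coding genes. Counting a summit only for its nearest start site left 5 bound genes (6.85%), beside 8.73% of all protein-coding genes. Of the 11 summits, 10 lay upstream of the mitochondrial ribosomal protein gene; 7 were intergenic, 2 in introns and 2 in 5' UTRs. Each had the start of at least 1 other protein-coding gene within 1 kb, and which gene of a pair a summit belongs to cannot be told apart in peak lists.

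**Figure D3:**
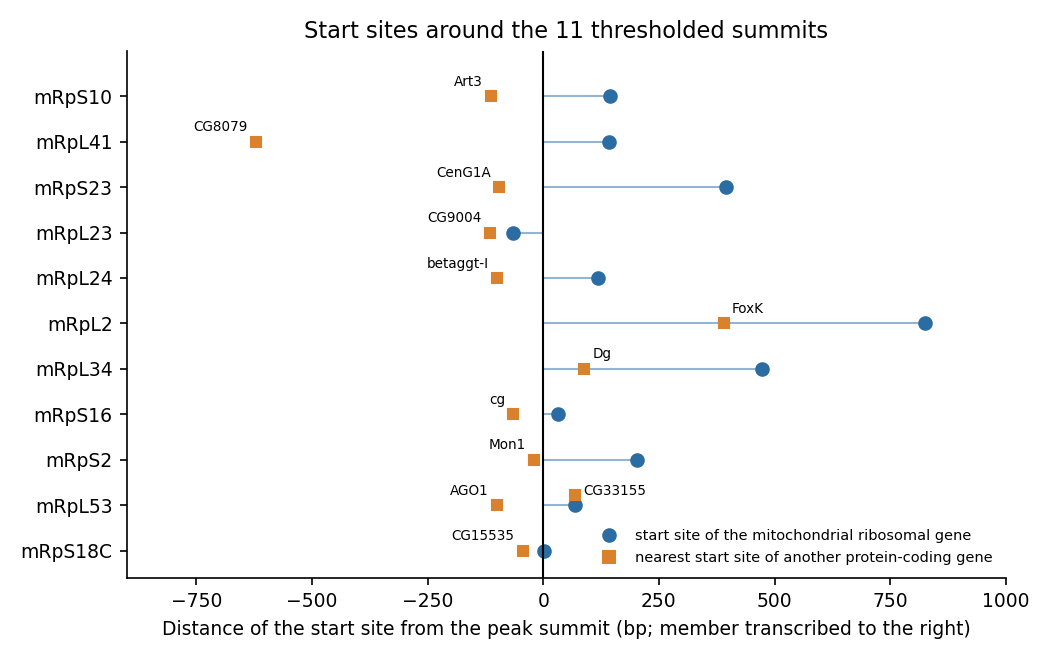
Position of start sites around the 11 thresholded summits (vertical line at 0), in bp along the direction in which the mitochondrial ribosomal protein gene is transcribed, ordered by signal from mRpS10 down. Blue circles are the mitochondrial ribosomal protein genes and orange squares other protein-coding genes; the square is the nearer in 6 rows, and at mRpL53 a second gene starts at the same base.

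The 1 kb limit left few genes near it. The bound gene farthest from its summit was mRpL2, at 826 bp. Just outside were mRpL27 at 1261 bp (rank 744) and mRpL13 at 1449 bp (rank 667), followed by mRpL20 at 1908 bp and mRpL40 at 2000 bp. The summit outside mRpL27 lay 3 bp from the start of RpL27A, a cytoplasmic ribosomal protein gene.

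Other gene groups of related function were counted in the same way. The other genes of mitochondrial translation were initiation, elongation, release and recycling factors, mitochondrial aminoacyl-tRNA synthetases, and GatA, GatB and GatC. The set also held 2 further ribosomal proteins under other names and the mitochondrial transcription genes. Of these 34 genes, 2 (5.88%) were bound, both by weak peaks. PheRS-m and LeuRS-m, the mitochondrial phenylalanine and leucine tRNA synthetase genes, ranked 2350 and 2353, and the summit at LeuRS-m lay nearer to Dhc64C. Of 88 nuclear oxidative phosphorylation genes, 8 (9.09%) were bound. Of 93 cytoplasmic ribosomal protein genes, 67 (72.0%) were bound, with a median signal of 246 and a median distance of 19 bp between summit and start. That distance was 141 bp for the bound mitochondrial ribosomal protein genes and 147 bp for all bound protein-coding genes. The Wilson intervals were 62.2 to 80.1 for the cytoplasmic genes and 8.63 to 25 for the mitochondrial ones. They cover counting error only, not variation between libraries, and are no test between the groups.

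**Figure D4:**
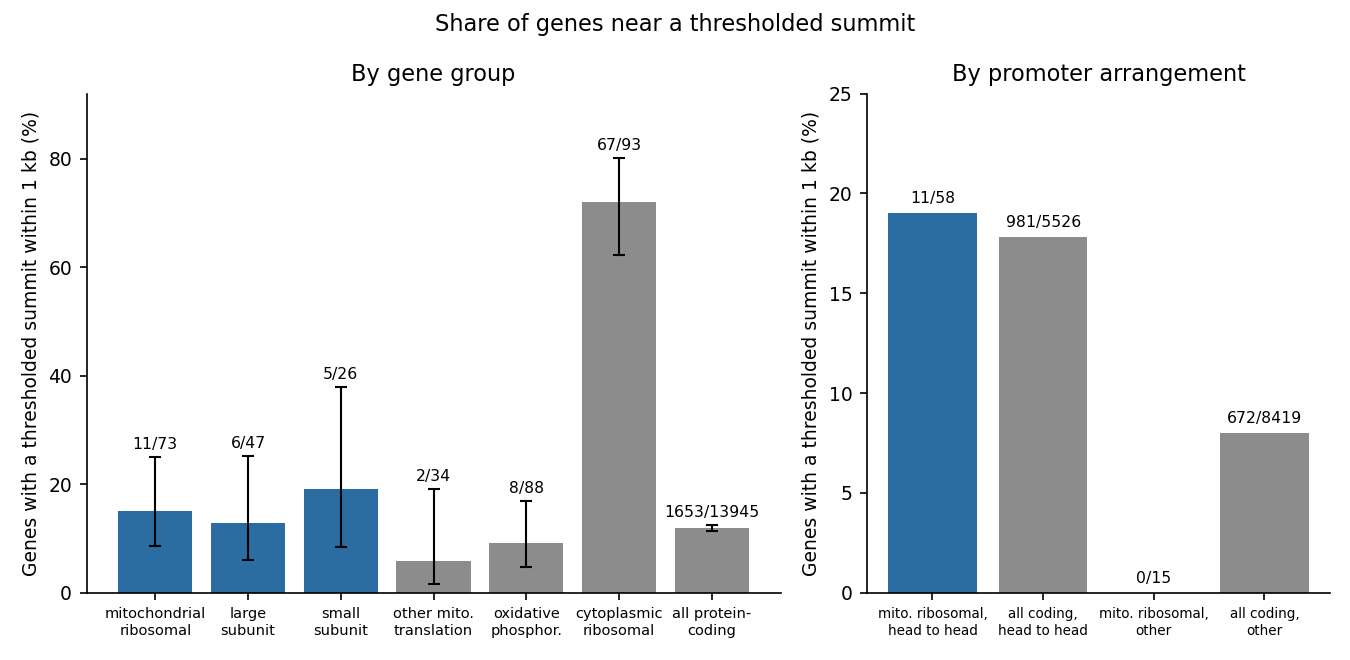
Share of genes (y axis, percent) with a thresholded summit within 1 kb, by gene group (left) and by promoter arrangement (right), with bound and total genes above each bar. The 95% Wilson intervals (left) cover counting error only. Mitochondrial ribosomal protein genes (15.1%) lie near all protein-coding genes (11.9%) and far below cytoplasmic ones (72.0%), and their bound genes all have a head-to-head partner.

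The GC content around the summits varied widely. Within 100 bp of the summit the GC content was 30.3% at mRpS10, 25.9% at mRpL41, 36.8% at mRpS23 and 35.8% at mRpL23. Weaker summits at mRpL24 (26.9%) and mRpS2 (31.3%) were also low, and the median of the 7 summits after the 4 strongest was 42.3%. Over the 11 summits the median was 36.8%, with a range from 25.9% at mRpL41 to 55.2% at mRpL53. The median over all thresholded summits near a protein-coding start was 42.8%, and the 100 strongest of the genome had a median of 43.0%. This measure was chosen after the values had been seen.

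Motifs were searched on both strands within 100 bp of the summits. CACGTG was found at 1 of the 11 summits (mRpL23), beside 5.79% of all thresholded summits, and CACGCG at 1 (mRpL2), beside 9.81%. CACNAG, the N box, was found at 3 summits, beside 26.3%. CAGCTG was found at 4 (mRpL34, mRpS2, mRpL53 and mRpS18C), beside 16.2%, and these were among the 5 weakest peaks of the 11. The core promoter motif GGTCACACT was found at 2 (mRpL34 and mRpS16), beside 1.37%. CAGGTAG, the motif of the early activator Zelda, was found at none of the 11. The GAGA repeat GAGAGAG, the element TATCGATA, the motif GCGCATGC and the motif CATCNCTA were also absent. The shares of these absent motifs were 1.25% to 9.61% over all thresholded summits and 1.31% to 11.6% over those near a protein-coding start.

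The E box CAGCTG was common at the start sites of these genes whether or not they were bound. In the window from 250 bp before to 50 bp after the 5' end of the gene it was present in 40 of 73 (54.8%), beside 17.7% of all protein-coding genes. The share was 57.4% (27 of 47) in the large subunit and 50% (13 of 26) in the small subunit. Among other groups it was present in 21 of 34 other mitochondrial translation genes (61.8%), in 23.9% of oxidative phosphorylation genes and in 9.68% of cytoplasmic ribosomal protein genes. The promoters of the 73 genes had a median GC content of 34.7%, beside 38.0% over all genes. Of the 23 other palindromic hexamers with the same letters, the most frequent, TGCGCA, was present in 6 of the 73 (8.22%), and the median hexamer in 4.11%, beside 4.14% of all genes. The look at this hexamer, its position and its relatives was taken after its count had been seen.

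The E boxes lay close to the start of transcription. In 35 of 73 genes (47.9%) a copy lay within 50 bp of the 5' end, beside 9.48% of all protein-coding genes, and in 19 (26.0%) within the first 25 bp downstream, beside 3.05%. The 30-base windows below, on dm6 and read along the gene's own strand, show the hexamer in capitals. Of the 7 bound genes with a copy, mRpL41 and mRpL53 are not shown. The lines give the other 5, ordered by signal, and then the 5 unbound genes with the copy nearest to the start among the genes eligible for display. The number in each line is the distance in bp from the 5' end of the gene to the third base of the hexamer, with a minus sign upstream.
mRpL23, -26, chr3L:2373715-2373744, minus strand: gtggttgacaatCAGCTGtttaaaacaagt
mRpL24, 22, chr2L:4945324-4945353, minus strand: ttcagttctcaaCAGCTGattgcaagccgc
mRpL2, 12, chr3L:11120845-11120874, plus strand: aacgccgcgtaaCAGCTGttttcagccgca
mRpS2, -9, chr2L:4850413-4850442, minus strand: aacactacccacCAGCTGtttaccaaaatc
mRpS18C, -43, chr3R:30423917-30423946, plus strand: agcactgccgaaCAGCTGttcacagctaca
mRpL46, 0, chr3L:1777425-1777454, plus strand: tgtgccgcaaatCAGCTGttccggctctgg
mRpL11, -3, chr3R:14511821-14511850, plus strand: cagcaataccatCAGCTGttgctgcttctt
mRpL35, -3, chr3R:22023510-22023539, plus strand: gtgaatggcacaCAGCTGactgttacgcga
mRpS21, 4, chr3R:13381790-13381819, minus strand: agtgatattcatCAGCTGtttagcagtaca
mRpS34, 4, chr3L:16348064-16348093, plus strand: agccagccggcaCAGCTGttcgaccttccc

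**Figure D5:**
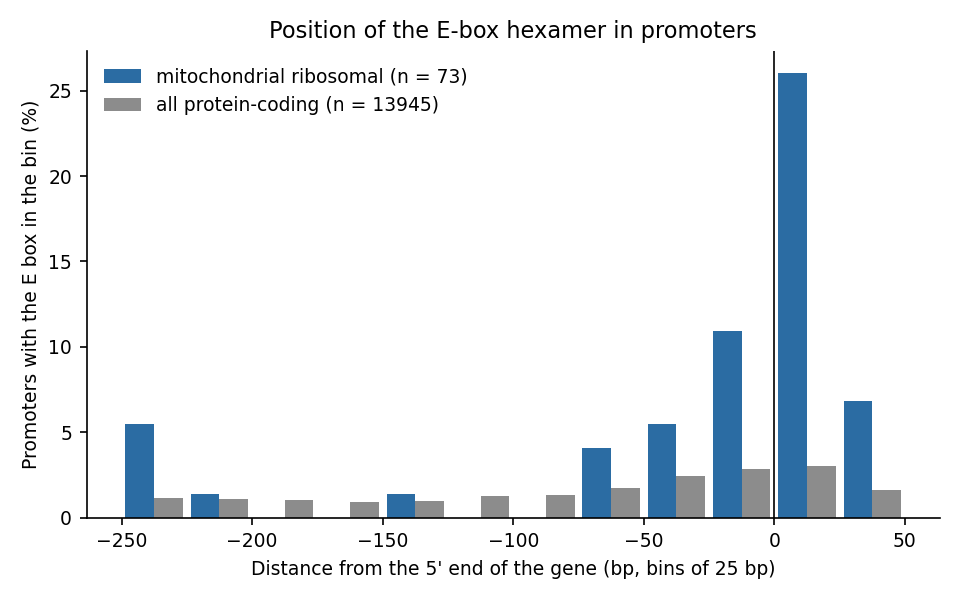
Share of promoters (y axis, percent) with a CAGCTG hexamer in each 25-bp bin of distance from the 5' end of the gene (x axis, bp), for the 73 mitochondrial ribosomal protein genes (blue) and all 13945 protein-coding genes (grey). The blue bars peak in the first 25 bp downstream, at 26.0%, where the grey bar is at 3.05%.

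Bound genes occurred both with and without the E box. Of the 40 genes with CAGCTG in the promoter window, 7 (17.5%) were bound, and of the 33 without it, 4 (12.1%). Over all protein-coding genes the shares were 14.7% and 11.2%. A pooled candidate of any strength lay near 28 of the 40 (70.0%) and 25 of the 33 (75.8%). mRpL46, with the hexamer at its start, had no candidate in any list, and the 4 strongest peaks, at mRpS10, mRpL41, mRpS23 and mRpL23, had no CAGCTG within 100 bp of the summit. Farther from the summit, mRpL41 and mRpL23 did hold it in the promoter window, at -7 and -26 bp from the 5' end. Of the other promoter motifs, TATCGATA, the DNA replication-related element, was present in 15 of 73 promoters (20.5%), beside 9.36% of all, and GGTCACACT in 8 (11%), beside 6.05%. CACGTG was present in 5 (6.85%), beside 4.20%, and CACGCG in 4 (5.48%), beside 6.12%.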

How the data were processed

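Per text files deposited with the samples, the authors called candidate peaks per replicate and on the pool of reads, with 1 control alignment for all (dm6), and derived the thresholded list by an irreproducible discovery rate procedure. Neither aligner, peak caller, threshold nor depth is given in the sources used here. Signal, the authors' deposited value for a peak, was used only to rank and describe peaks within a list. The deposited summit offset gave 1-based summit positions.

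Start sites and annotation came from Ensembl's BDGP6 gene models, and sequences from RefSeq's copy of the same assembly. Genes on chromosome arm 2R were left out of the sequences shown, whatever their values. Summits were matched between lists within 100 bp. Alternatives were other distances, a stricter list, each replicate alone, 1 start site per gene, the nearest start only, other match and motif windows. A shorter promoter window was chosen after seeing the data. The counting was tested on simulated data. Members, lists and motifs were chosen with earlier results of these data known. All bound genes are named, with the 5 unbound ones of highest signal. Python 3.11.15, numpy 2.4.6, scipy 1.17.1 and matplotlib 3.10.9 were used.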

Additional observations from a re-analysis of the deposited data

How the results depend on the processing

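The count of 11 bound genes was 10 (13.7%, beside 10% of all protein-coding genes) with summits within 500 bp, which left out mRpL2. Within 2 kb it was 15 (20.5%, beside 15%), and with 1 start site per gene 11 (15.1%, beside 10.3%). Among the stronger thresholded peaks, cut at their median rank, it was 6 (8.22%, beside 5.99%), since mRpL34, mRpL53, mRpS16, mRpS18C and mRpS2 rank below that. Counted only for the nearest start site it was 5 (6.85%, beside 8.73%), since 6 summits lie nearer to another gene. Leaving out a replicate gave 12 to 13 genes, of which 9 each time were among the 11: replicate 3 alone lacked mRpL53 and mRpS16, and replicate 4 alone lacked mRpS18C and mRpS2. The median signal of bound genes ran from 138 to 184 over the distance and assignment rules. The number of summits strong in both replicates was 5 with a match within 50 bp and 7 within 200 bp. In windows of 50 bp to each side, CACGTG was at 0 summits and GGTCACACT at 1. With the promoter window from 100 bp upstream, 38 genes (52.1%) held CAGCTG, beside 12% of all. No paired analysis was possible because the 2 samples form 1 group. With depth unknown, absence from a list shows only that no peak was called there.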
